A study of Homo sapiens with 7 samples.

Results

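Sites recurrent in wild-type piggyBac libraries are genomic positions at which a transposon insertion was listed, at the identical chromosome and base, in 2 or 3 of the 3 wild-type libraries of a calling card experiment. They numbered 5206 of the 178101 distinct positions in those libraries, and of the 204874 positions in all 5 insertion libraries. Of the 5206, 4821 were in exactly 2 libraries and 385 in all 3, while 172895 positions were in 1 wild-type library. The host cells were HCT116, a widely used line from a human colon carcinoma. The transposon was moved either by piggyBac transposase carrying SP1 as a fusion partner (SP1_PB, 2 libraries) or by the enzyme without it, the wild type (WT_PB, 3 libraries). Cells of both groups carried a drug-selected transposon, and insertion sites were amplified by inverse PCR from DNA cut with 3 restriction enzymes in separate aliquots. A list of 27015 SP1 ChIP-seq peaks from 1 HCT116 sample served as the map of SP1 sites. The labels do not say whether replicate libraries came from separate transfections or cultures. Whether a recurrent position marks separate integration events was therefore not tested.

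The piggyBac transposase, an enzyme first found in a moth, cuts its transposon out of DNA and inserts it at the tetranucleotide TTAA, which is duplicated on insertion. In mammalian genomes its insertions are known to favour open chromatin and the starts of transcribed genes, so the wild-type enzyme does not sample the genome evenly. SP1, a transcription factor with zinc fingers, recognises GC boxes in many promoters, and a transposase fused to it leaves insertions, the calling cards, near the places it binds. The hg18 sequence was not used here, so neither the TTAA at each site nor the nearest gene was looked up, and coordinates are those of the deposited hg18 files.

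Depth ran from 904125 to 1004964 reads in the SP1_PB and from 1030567 to 2439456 in the WT_PB libraries, for 14467 to 18856 and 57419 to 67423 distinct positions. Recurrent positions made up 6.47% (95% Wilson interval 6.28 to 6.67), 5.76% (5.58 to 5.93) and 5.41% (5.23 to 5.60) of WT_PB replicates 1, 2 and 3. Among positions in exactly 2 libraries, 2099 were shared by replicates 1 and 2, 1325 by replicates 1 and 3, and 1397 by replicates 2 and 3. Replicates 1 and 2 thus shared the most. Reads of a PCR library carry no molecular identifier here and cannot be taken as separate molecules, so every interval covers counting error only.

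Matches between libraries were concentrated at the identical base and 1 bp to either side. Summed over the 3 pairs of WT_PB libraries, 5976 pairs of positions were identical and 4501 lay 1 bp apart, against 141 at 2 bp and 57 at 3 bp. At each single offset from 4 to 12 bp on either side, a pair of libraries held between 1 and 15 matches, with a median of 8. Counted in that way, for 1 pair and 1 side, offsets of 2 bp held 17 to 27 matches and those of 3 bp 2 to 13. The 1 bp matches were near evenly split, 2315 with the second library's position before and 2186 with it after the first. The rule of identical positions therefore leaves out many near matches. Just outside it stood 5390 single-library positions with a position of another WT_PB library 1 bp away. Of these 21.0% (19.9 to 22.1) lay within 1 kb of an SP1 peak and 9.17% (8.42 to 9.96) were also in an SP1_PB library, against 19.7% (18.7 to 20.8) and 12.7% (11.8 to 13.6) of the recurrent positions inside the rule. The remaining 167505 single-library positions stood at 6.74% and 1.48%. With positions within 3 bp merged into 1 site, 6997 sites were recurrent, 720 of them in all 3 libraries.

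**Figure D1:**
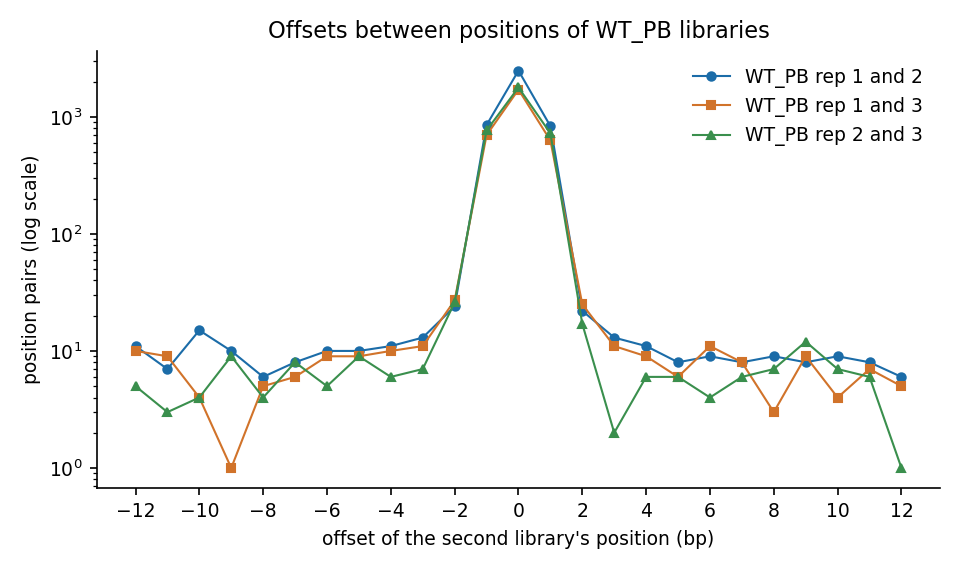
Number of position pairs (log scale) between 2 WT_PB libraries at each offset in bp of the second library's position, 1 line per pair of libraries. Identical positions numbered 1710 to 2484 per pair, and from 4 bp on no offset had more than 15 matches.

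Recurrent positions carried somewhat more reads than positions in 1 library, although every read class held some. Because a position is listed in a library only through its reads, reads are given as a description with no test. The median in WT_PB replicate 1 was 5 reads at recurrent positions (quartiles 2 and 24) and 3 at single-library positions (1 and 15). In replicate 2 the medians were 6 (2 and 35) and 4 (1 and 21), and in replicate 3 they were 7 (2 and 28) and 3 (1 and 13). Recurrent positions held 8.30%, 8.06% and 9.52% of the reads of replicates 1, 2 and 3, above their 5.41% to 6.47% of positions. The share of recurrent positions was lowest at positions with 1 read, at 5.31%, 4.34% and 3.25%, and highest at those with over 50 reads, at 7.94%, 7.25% and 9.76%. A position could be listed in more than 1 line, for a reason the files do not state. This was so for 15.0%, 18.7% and 8.53% of recurrent positions in replicates 1, 2 and 3, against 3.33%, 5.01% and 1.64% of single-library positions.

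**Figure D2:**
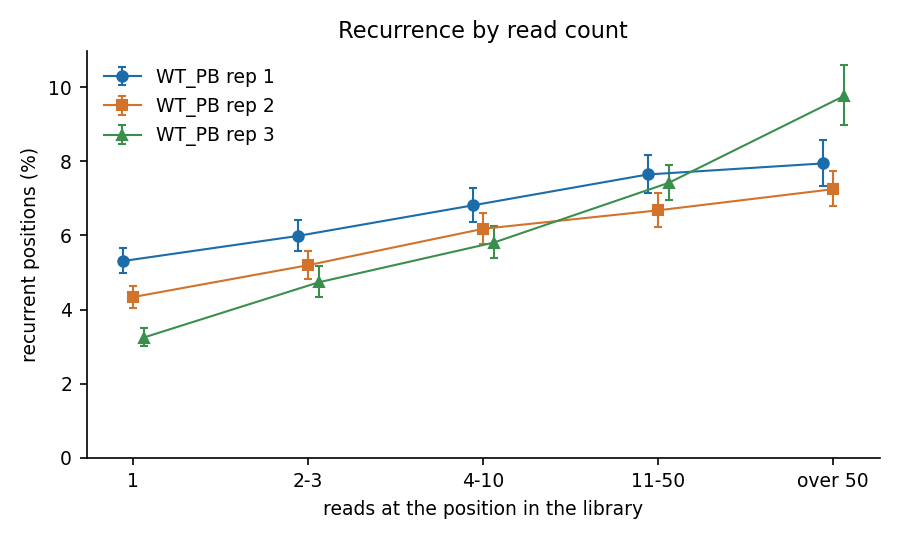
Share of positions that were recurrent (%) by the number of reads at the position, for each WT_PB library, with 95% Wilson intervals. In replicate 3 the share was 3.25% at 1 read and 9.76% over 50 reads.

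Reads at the same recurrent position often differed widely between the libraries that shared it. The highest count was a median of 3.43 times the lowest (quartiles 1.80 and 9.50), it was within 2-fold at 1817 positions (34.9%), and it was over 10-fold at 1231 (23.6%). At 1979 positions (38.0%) the library with the fewest reads had 1 read, and at 360 every library that held the position had 1 read. At the other end 1206 positions (23.2%) had at least 10 reads in each library that held them and 357 at least 50. The part of low-read listings in the recurrence was not tested. Values by reads are given beside the results that follow.

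The 8 positions in all 3 libraries with the most reads in their lowest library, spaced over 3 bp, lay on 7 chromosomes. The leading one, on chromosome 10 at 112316872, had 170, 267 and 295 reads in WT_PB replicates 1, 2 and 3. It lay 58 bp from a peak at chromosome 10, 112316930 to 112318348, with the high score of 1568.25, against a median score of 384.88 over all peaks (the score is the authors' own and ranks peaks within their list). On chromosome 15 at 68093331 the reads were 156, 248 and 525, and on chromosome 4 at 30356384 they were 253, 397 and 153. The position on chromosome 4 lay 1285227 bp from the nearest peak, so reads in every WT_PB library were found far from SP1 sites too. On chromosome 12 the position at 97409107 had 171, 153 and 120 reads, 24629 bp from a peak, and that at 104154417 had 135, 567 and 98 reads, 86 bp from a peak. The position on chromosome 5 at 162862840 had 119, 235 and 132 reads, and was the only one of the 8 also listed in an SP1_PB library, with 173 reads in SP1_PB replicate 1. On chromosome 17 at 5313212 the reads were 162, 99 and 465, and on chromosome 6 at 33259279 they were 133, 1700 and 95. These positions were picked by their reads, which are therefore a description. Each had 1 or 2 other WT_PB positions within 3 bp, neighbours closer than separate TTAA sites can lie.

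Positions shared by a pair of WT_PB libraries were found in the remaining library more often than positions in only 1 of the pair. Each library was held out in turn, so that the library in which recurrence was counted had no part in choosing the positions. With replicate 1 held out, 385 of 1782 shared positions were found in it (21.6%, 19.8 to 23.6), against 3424 of 121278 positions in 1 of the pair (2.82%, 2.73 to 2.92). With replicate 2 held out the shares were 22.5% (20.6 to 24.6) and 3.10% (3.00 to 3.20). With replicate 3 held out they were 15.5% (14.1 to 17.0) and 2.24% (2.16 to 2.33). Summed over the 3 hold-outs the ratio of shares was 7.12 (95% log-normal interval 6.74 to 7.53), and 6.91 to 7.65 in single hold-outs. Fisher's exact test (two-sided) gave an adjusted p below 1e-300, adjusted over the 8 comparisons of shares made. The hold-outs share libraries, the 385 shared positions found are the same in each, and positions enter the sums more than once. Fisher's test takes all entries as independent and does not measure the spread between cultures. The summed interval is therefore too narrow. Single hold-outs of replicates 1, 2 and 3 gave intervals of 6.96 to 8.41, 6.62 to 7.98 and 6.26 to 7.63. With at least 10 reads required in each library the summed ratio was 7.11 (6.26 to 8.09).

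Recurrent positions lay near SP1 ChIP-seq peaks more often than single-library positions of the same wild-type libraries, which carried no SP1 fusion. Within 1 kb of a peak lay 1026 of 5206 recurrent positions (19.7%) and 12426 of 172895 single-library positions (7.19%), a ratio of 2.74 (2.59 to 2.90, Fisher's exact test, adjusted p = 5.83e-181). The test takes positions as independent, yet 498 recurrent positions (9.57%) had another recurrent one 1 to 3 bp away. With positions within 3 bp merged into 1 site the ratio was 3.00 (2.85 to 3.15). By library the shares were 19.9% against 7.33% in replicate 1, 19.3% against 6.98% in replicate 2 and 20.7% against 7.27% in replicate 3. No library's recurrent share overlapped the range of single-library shares, and the means were 19.98% ± 0.687 and 7.20% ± 0.187 (SD, n = 3 libraries, which share the recurrent positions). Inside peaks lay 357 recurrent (6.86%) and 2832 single-library positions (1.64%), a ratio of 4.19 (3.76 to 4.66, Fisher's exact test, adjusted p = 7e-104). The ratio depended on the distance that counted as near and was 1.68 within 10 kb. At recurrent positions with 1 read in the lowest library the share within 1 kb was 16.2%, and at those with at least 10 reads in each it was 25.3%. The share was also higher at single-library positions with more reads, with 6.18%, 5.81% and 6.21% within 1 kb at 1 read in replicates 1, 2 and 3, and 9.17%, 8.60% and 10.2% over 50 reads. With at least 10 reads required throughout, the shares were 26.0% of recurrent and 9.19% of single-library positions, a ratio of 2.83 (2.58 to 3.12).

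**Figure D3:**
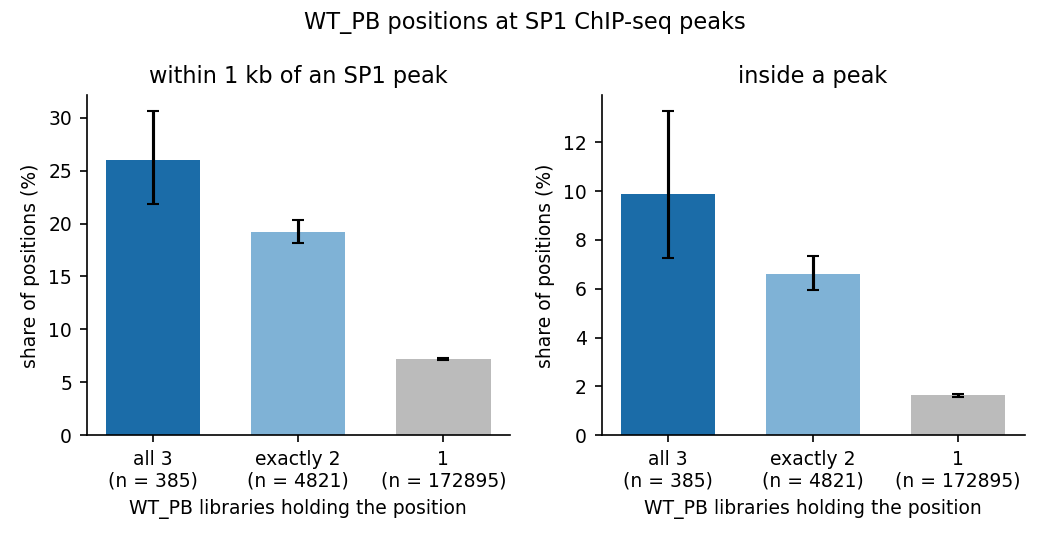
Share of WT_PB positions (%) within 1 kb of an SP1 peak (left) and inside a peak (right), for positions in all 3, in exactly 2 and in 1 of the WT_PB libraries, with 95% Wilson intervals. Within 1 kb the shares were 26.0%, 19.2% and 7.19%.

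The share near peaks was graded by the number of libraries. Of positions in all 3 libraries 100 of 385 (26.0%, 21.8 to 30.6) lay within 1 kb of a peak, against 926 of 4821 in exactly 2 (19.2%, 18.1 to 20.3), a ratio of 1.35 (1.13 to 1.62, Fisher's exact test, adjusted p = 1.74e-03). The share was 18.2% for positions shared by replicates 1 and 2, 20.8% for replicates 1 and 3, and 19.1% for replicates 2 and 3. Inside peaks lay 9.87% (7.28 to 13.3) of positions in all 3 and 6.62% (5.95 to 7.35) of those in exactly 2. The median distance to a peak was 22118 bp for positions in all 3 libraries, 31066 bp for those in exactly 2 and 59874 bp for those in 1. The difference in the 1 kb share between all 3 and exactly 2 was no longer past the threshold with at least 10 reads required, at a ratio of 1.11 (0.766 to 1.61, Fisher's exact test, adjusted p = 0.584), when 73 positions were in all 3 libraries.

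Recurrence was highest inside peaks and fell over the first 2 kb around them. Of the positions inside peaks 20.6%, 20.6% and 21.8% were recurrent in WT_PB replicates 1, 2 and 3. At 1 to 500 bp the shares were 16.2%, 14.1% and 12.7%, and from there to 1 kb 10.1%, 9.004% and 8.95%. Between 5 and 10 kb they were 6.26%, 5.64% and 5.55%, and beyond 100 kb 4.80%, 4.19% and 3.43%. As shares of all recurrent positions, those at 1 to 500 bp were the larger group, with 511 (9.82%) against 3.72% of single-library positions. From 5 to 10 kb the shares were 6.03% and 6.06%, a ratio of 0.995 (0.892 to 1.11). Most recurrent positions were far from peaks nonetheless, with 3441 (66.1%) over 10 kb and 1401 (26.9%) over 100 kb away, against 79.8% and 38.9% of single-library positions.

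**Figure D4:**
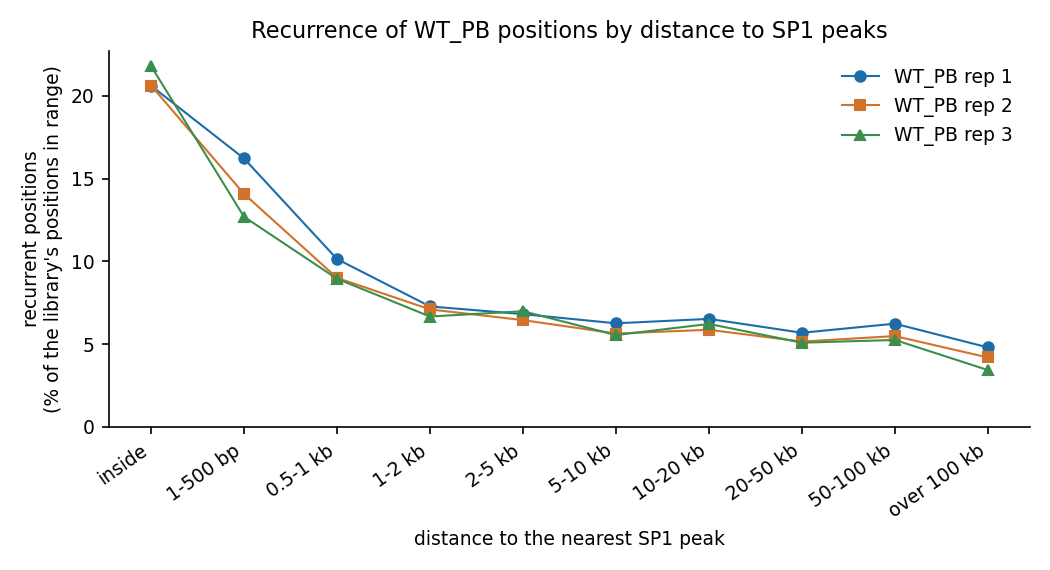
Share of each WT_PB library's positions that were recurrent (%) by distance to the nearest SP1 peak, 1 line per library. Inside peaks the share was 20.6% to 21.8%, and over 100 kb away it was 3.43% to 4.80%.

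The peaks reached were 863, or 3.19% of all 27015, counting each recurrent position within 1 kb at its nearest peak. Their median score was 529.86, against 479.96 for the 6518 peaks reached by single-library positions only and 384.88 for all peaks. Most had 1 recurrent position: 133 had at least 2, 26 at least 3 and 3 at least 4. Positions within 3 bp were not merged in these counts, and 498 of all recurrent positions (9.57%) had another recurrent one 1 to 3 bp away. How many of these peaks held several separate sites was not counted. The peak with the most, 5 recurrent among 16 WT_PB positions, lay on chromosome 12 at 64408953 to 64409781 and had a score of 452.94. Those with 4 lay on chromosome 10 at 125840863 to 125843509 and on chromosome 17 at 40804557 to 40805396, with 7 WT_PB positions each. These 3 were picked by their counts.

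Among recurrent positions inside peaks, the 5 at the peaks with the highest scores were in exactly 2 libraries each. At chromosome 8, 8123915, in a peak with a score of 2992.54, the reads were 90 and 4 in the SP1_PB libraries and 4 and 106 in WT_PB replicates 1 and 2. The position on chromosome 8 at 142207289 had 111 and 2796 reads in the SP1_PB libraries, and 398 and 1 in WT_PB replicates 2 and 3. On chromosome 17 at 53515548 the SP1_PB libraries had 2 and 861 reads, and WT_PB replicates 2 and 3 had 43 and 2. All 3 of these positions were thus shared with both SP1_PB libraries, and at each of them some library had 1 to 4 reads where another had over 100. The position on chromosome 1 at 16812714 had 27 reads in SP1_PB replicate 1, and 22 and 3 in WT_PB replicates 1 and 3. That on chromosome 19 at 22491 was in neither SP1_PB library and had 3 reads and 1 read in WT_PB replicates 1 and 2.

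Recurrent positions also lay where other insertions were dense. Clustering was measured in the held-out library, counting positions 4 bp to 1 kb away so that neither the identical position nor its close neighbours entered. With replicate 1 held out, 42.7% (40.4 to 45.0) of positions shared by the other pair had such a neighbour, against 13.6% (13.4 to 13.8) of positions in 1 of the pair. With replicate 2 held out the shares were 44.0% and 14.8%, and with replicate 3 held out 37.8% and 12.7%. The summed ratio was 3.00 (2.91 to 3.10, Fisher's exact test, adjusted p below 1e-300). Positions enter this sum more than once as well, so its interval is too narrow. Single hold-outs of replicates 1, 2 and 3 gave 3.15 (2.98 to 3.33), 2.97 (2.81 to 3.14) and 2.97 (2.82 to 3.13). The summed ratio was 3.45 (3.16 to 3.78) for neighbours within 100 bp and 1.53 (1.51 to 1.56) within 10 kb.

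Within the libraries that chose them, given as a description, 3228 recurrent positions (62.0%) and 26.7% of single-library positions had another WT_PB position 4 bp to 1 kb away, and for positions in all 3 libraries the share was 73.8%. Another recurrent position lay in that range of 1003 recurrent positions (19.3%) and of 3.76% of single-library positions. In windows of 50 kb the share of positions that were recurrent was 0.958% where the window held 1 WT_PB position, 2.89% at 5 to 9 positions, 5.34% at 10 to 19 and 11.6% at 50 or more. These window shares are over the distinct positions of all WT_PB libraries together, of which 2.92% were recurrent. They are lower by construction than shares of each library's own positions. The windows were classed by positions of the same libraries that define recurrence, so the rise with density is in part built in and was not tested. The isolated positions below were picked from those libraries too. In each density class the recurrent share was higher within 1 kb of a peak than farther away. In windows of 1 to 4 WT_PB positions 5.29% (4.61 to 6.07) of positions within 1 kb of a peak were recurrent, against 1.23% (1.15 to 1.31) of those farther away. In windows of 20 or more positions the shares were 12.9% (10.2 to 16.1) and 9.05% (8.52 to 9.61). Among the 1978 recurrent positions with no other WT_PB position 4 bp to 1 kb away, an alternative chosen after the data had been seen, 17.8% lay within 1 kb of a peak against 4.85% of such single-library positions, a ratio of 3.68 (3.34 to 4.06). Inside peaks the ratio for these isolated positions was 7.03 (6.02 to 8.20), more than 1.5 times the value for all positions.

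The 5 windows of 50 kb with the most recurrent positions held no SP1 peak. Chromosome 10 from 114.25 to 114.30 Mb held 18 recurrent among 107 distinct WT_PB positions, with 48, 49 and 30 positions in replicates 1, 2 and 3, and its positions lay at least 52933 bp from a peak. On chromosome 8 from 128.30 to 128.35 Mb 15 of 77 were recurrent, and on chromosome 1 from 8.05 to 8.10 Mb 13 of 64. The windows on chromosome 4 from 30.35 to 30.40 Mb and on chromosome 9 from 21.65 to 21.70 Mb had 13 of 120 and 13 of 82. The window on chromosome 4 was the farthest from SP1 sites, at 1241882 bp or more, and had a recurrent share of 10.8%, against 15.9% to 20.3% in the other 4. SP1_PB positions in these windows numbered 8, 3, 2, 3 and 5 in the order given. The SP1_PB libraries held fewer positions in all, 18856 and 14467 against 57419 to 67423 in the WT_PB libraries. Whether these windows were rich or poor in SP1_PB positions for that total was not tested. With positions within 3 bp merged, the 5 windows held 23, 19, 13, 16 and 14 recurrent sites. Over the genome 3742 of the 48804 windows with a WT_PB position held a recurrent one, and 48.3% of these held a peak. Of the 80 windows with at least 5 recurrent positions 27.5% held a peak, against 25.5% of all windows with a WT_PB position. None of the 8 windows with at least 10 recurrent positions held one.

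Recurrent positions were found again in the SP1_PB libraries, which had no part in choosing them, more often than single-library positions. In either SP1_PB library were 661 of 5206 recurrent positions (12.7%, 11.8 to 13.6) and 2976 of 172895 single-library positions (1.72%, 1.66 to 1.78). The ratio was 7.38 (6.81 to 7.99, Fisher's exact test, adjusted p below 1e-300), and 7.28 to 8.18 over the 3 WT_PB libraries taken alone. With positions within 3 bp merged it was 7.05 (6.61 to 7.53). SP1_PB replicate 1 held 494 (9.49%) of recurrent and 1.21% of single-library positions, and SP1_PB replicate 2 held 324 (6.22%) and 0.819%. Both SP1_PB libraries held 157 recurrent positions (3.02%) and 540 single-library positions (0.312%). With at least 50 reads required in each library, an alternative chosen after the data had been seen, the ratio was 4.38 (3.06 to 6.26), at 7.48% of 401 recurrent positions against 1.71% of single-library positions.

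This sharing with the SP1 fusion was graded too. Of positions in all 3 WT_PB libraries 86 of 385 (22.3%, 18.5 to 26.8) were in an SP1_PB library, against 575 of 4821 in exactly 2 (11.9%, 11.04 to 12.9), a ratio of 1.87 (1.53 to 2.29, Fisher's exact test, adjusted p = 5e-08). With at least 10 reads required the ratio was 1.66 (0.986 to 2.78, Fisher's exact test, adjusted p = 0.0933), no longer past the threshold. At positions with 1 read in the lowest WT_PB library 11.3% of all recurrent positions were in an SP1_PB library, and at those with at least 10 reads in each 15.1%.

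Recurrent positions far from SP1 peaks were also found again with the SP1 fusion more often than single-library positions. Over 10 kb from any peak 309 of 3441 recurrent (8.98%) and 1151 of 137982 single-library positions (0.834%) were in an SP1_PB library, a ratio of 10.8 (9.54 to 12.1, Fisher's exact test, adjusted p = 1.04e-190). By WT_PB library the ratio was 10.6, 11.2 and 11.6, and with 1 SP1_PB library at a time it was 11.1 and 11.2. Within 1 kb of a peak SP1_PB replicate 1 held 18.7% (16.4 to 21.2) of recurrent and 7.77% (7.32 to 8.26) of single-library positions, and SP1_PB replicate 2 held 13.3% and 5.81%. Beyond 100 kb SP1_PB replicate 1 still held 95 of 1401 recurrent positions (6.78%, 5.58 to 8.22) and 0.375% of single-library positions, and SP1_PB replicate 2 held 27 (1.93%, 1.33 to 2.79) and 0.184%. Inside peaks 37.0% of 357 recurrent positions were in an SP1_PB library, against 25.0% of single-library positions. Whether the ratio differed between distances was not tested.

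**Figure D5:**
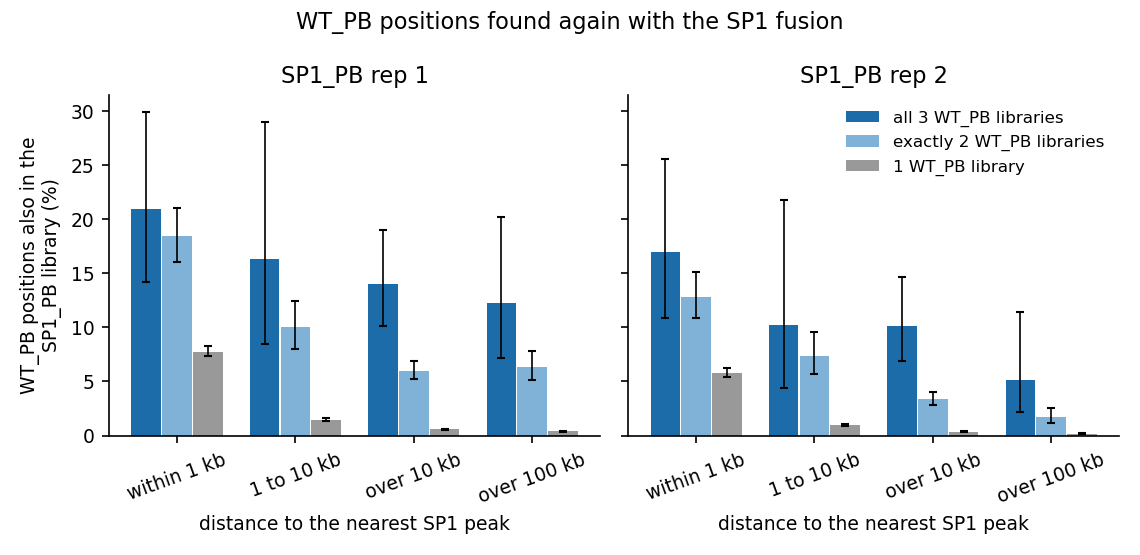
Share of WT_PB positions (%) also listed in SP1_PB replicate 1 (left) and replicate 2 (right), by distance to the nearest SP1 peak and by the number of WT_PB libraries holding the position, with 95% Wilson intervals. Positions over 100 kb are also part of those over 10 kb. In each distance class of both libraries positions in 1 WT_PB library had the lowest share, such as 0.584% over 10 kb in replicate 1.

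Seen from the SP1_PB libraries, recurrent wild-type positions were a small part of the fusion's insertions, 2.62% (2.40 to 2.86) of replicate 1 and 2.24% (2.01 to 2.49) of replicate 2. Positions in 1 WT_PB library made up 11.1% and 9.79%, and those in none 86.2% and 88.0%. The 494 recurrent positions in SP1_PB replicate 1 had a median of 12 reads there, against 8 at positions in 1 WT_PB library and 6 at positions in none. In SP1_PB replicate 2 the medians were 27.5, 26 and 12. Of the recurrent positions in SP1_PB replicate 1 31.8% (27.8 to 36.0) were also in replicate 2, against 25.7% (23.9 to 27.6) of those in 1 WT_PB library and 13.6% (13.1 to 14.2) of those in none. Near peaks the order was another one, since within 1 kb lay 38.9% of the recurrent, 46.0% of the single-library and 40.8% of the remaining positions of replicate 1. In replicate 2 these shares were 42.0%, 50.99% and 40.7%. Positions in 1 WT_PB library thus had the highest share in both libraries. Recurrent positions were close to the remaining ones, slightly below in replicate 1 (192 of 494) and slightly above in replicate 2 (136 of 324). These differences were not tested.

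All 5 insertion libraries held 22 positions in common. The one with the most reads in its lowest library, on chromosome 17 at 44693128 inside a peak with a score of 1511.43, had 460 and 82 reads in the SP1_PB libraries and 19, 866 and 265 in the WT_PB libraries. On chromosome 3 at 73242923, 15674 bp from a peak, the reads were 77 and 98 in SP1_PB and 12, 16 and 16 in WT_PB. The position on chromosome 4 at 37997110, 340991 bp from a peak, had 695 and 1328 reads in SP1_PB and 400, 6 and 13 in WT_PB. On chromosome 8 at 143777965 the reads were 11 and 132 in SP1_PB and 10, 51 and 31 in WT_PB. On chromosome 1 at 226139896, 855 bp from a peak, they were 42 and 39 in SP1_PB and 5, 6 and 23 in WT_PB. One of these 5 thus lay inside a peak, 1 more within 1 kb, and 3 over 10 kb away. At the positions on chromosomes 3, 4 and 1 both SP1_PB counts were above every WT_PB count. These are raw counts, and SP1_PB libraries had more reads per position in general. The median over all positions was 6 and 13 in SP1_PB replicates 1 and 2, and 3, 4 and 3 in WT_PB replicates 1, 2 and 3.

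Recurrent positions occurred on all 24 chromosomes, and 8 of the 24 (33.3%) differed in their share of recurrent against single-library positions, 5 higher (20.8%) and 3 lower (12.5%). Chromosome 17 took 5.69% of recurrent and 4.01% of single-library positions, a ratio of 1.42 (1.27 to 1.59) at an adjusted p of 2.54e-07 by Fisher's exact test. Chromosome 19 took 2.98% and 2.13%, a ratio of 1.39 (1.19 to 1.63, Fisher's exact test, adjusted p = 6.83e-04). Chromosomes 10 and 12 were higher with a ratio of 1.18 each, and Y with a ratio of 1.75 (1.19 to 2.57) on 27 recurrent positions. Lower were X with a ratio of 0.666 (0.543 to 0.819, Fisher's exact test, adjusted p = 5.47e-04), chromosome 13 with 0.755 and chromosome 5 with 0.847. Chromosomes 17 and 19 were also rich in SP1 peaks, with 27.6 and 37.5 per Mb up to the last listed coordinate, and chromosome 17 in WT_PB positions, with 91.8 per Mb. Chromosomes 22 and 16 came next in peaks, with 21.8 and 18.98 per Mb, and were not called. Chromosomes 10 and 12, called higher, had 7.76 and 8.41 peaks per Mb, fewer than chromosomes 1 and 11 with 10.2 and 11.9, which were not called. X had 1.85 peaks and 29.9 WT_PB positions per Mb. Y, although called higher, had 0.242 peaks and 9.35 WT_PB positions per Mb. The part of peaks and density in the chromosome shares was not tested. In X 5.23%, 4.81% and 2.33% of the positions of replicates 1, 2 and 3 were recurrent, and in chromosome 17 8.28%, 7.92% and 8.26%.

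These chromosome calls rested on all 3 libraries. Without WT_PB replicate 1 chromosomes 14, 17 and X were called, without replicate 2 chromosomes 2, 10, 16, 17 and X, and without replicate 3 chromosome 19 alone. With at least 10 reads required Fisher's exact test called 0, with 6 chromosomes at an unadjusted p under 0.05.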

How the data were processed

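Per the deposited readme, each insertion file gives chromosome, base position and read count per insertion from alignment to hg18 with bowtie (version 0.12.7 in the submitters' processing notes). The deposited counts are raw, and neither strand nor any filter on reads is stated. Chromosome codes 23 and 24 were taken as X and Y. Where a file listed 1 position in several lines, their reads were added up. The readme names MACS as the source of the peak list, and the score of each peak is the authors' deposited value, of unstated scale. The expression table has no positions and was not used.

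Groups came from the sample titles. Each distinct position counted once, and its distance ran to the nearest peak edge (0 inside). The 2 hold-out comparisons were the exception, since they were summed over the 3 hold-outs and positions entered them more than once. Fisher's exact test (two-sided) compared shares, with Benjamini-Hochberg adjustment over 8 comparisons, or over 24 chromosomes. The test takes positions as independent, which those a few bp apart may not be. All its p-values, and the intervals of the ratios, therefore cover counting error only. A difference was called at an adjusted p under 0.05 with the same direction in each library. The libraries share recurrent positions, and the 385 positions in all 3 are the same in each, so the directions by library were not independent. The share ratio, its interval, Fisher's test and the adjustment were tested on simulated data with independent positions. That simulation held no dependence between neighbours or libraries. It did not cover the hold-out, distance or neighbour steps. Python 3.11.15, scipy 1.17.1 and pandas 2.3.3 were used. Members, comparisons and the rules for named positions (most reads in the lowest library, highest peak score, fullest windows) were chosen with earlier results of these data known. Alternatives covered merging, read minimums, distances, peak scores and left-out libraries.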

Additional observations from a re-analysis of the deposited data

How the results depend on the processing

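Of 73 recalculations of the share comparisons 71 stayed on the same side of the threshold, 2 lost their call and none reversed. All 7 recalculations of the chromosome count lost at least 1 of the 8 calls. With at least 10 reads required the comparisons of all 3 with exactly 2 libraries lost their call, with ratios of 1.11 (share within 1 kb of a peak) and 1.66 (share in SP1_PB) (0.766 to 1.61 and 0.986 to 2.78), on 73 positions in all 3 libraries. The chromosome count, 8 with all data, was 4 with at least 3 reads, 0 with at least 10 reads (6 at an unadjusted p under 0.05) and 5 among isolated positions. It was 1 to 5 without 1 WT_PB replicate, on 1710 to 2484 recurrent positions. With positions within 3 bp merged 7 were called, all among the 8, and the call of Y was lost. The ratio of shares within 1 kb of a peak ran from 2.62 to 3.68 over 10 alternatives, and from 2.62 to 2.87 without 1 WT_PB replicate. With other distances it was 3.11 within 500 bp, 1.97 within 5 kb and 1.68 within 10 kb. That of shares in SP1_PB ran from 4.38 to 10.99 over 11. No paired analysis was possible because the replicate numbers are shared between the SP1_PB and WT_PB groups, which were not compared with each other. Recurrent and single-library positions were also compared within each WT_PB library, where the ratio of shares within 1 kb was 2.78 ± 0.0645 (SD, n = 3 libraries, which share the recurrent positions). The part of reads and depth in which positions recurred was not tested.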
